A study of Homo sapiens with 4 samples.

Results

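The ribosomal DNA repeats and the unplaced contigs of the human genome build GRCh38 are described here by their crosslinked positions in libraries of poly(PR). Poly(PR) is the proline-arginine dipeptide repeat protein made from the C9orf72 repeat expansion. Without control libraries, the values do not show which of these sequences are its targets and which are background. Members were chosen by place alone. They were all crosslinked positions, and all clusters of such positions, on sequences other than chromosomes 1 to 22, X, Y and M, together with the stretch of chromosome 21 from 8.20 to 8.46 Mb that holds the assembled ribosomal DNA. In all, 3681 of the 784115 crosslinked positions were members, with 13922 of the 1244203 cDNAs and 131 of the 5596 pooled clusters. Of these positions, 2557 with 9369 cDNAs lay on 69 sequences outside the chromosomes, and 1124 with 4553 cDNAs lay in the chromosome 21 stretch.

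All 4 libraries came from HEK293T cells, a transformed human embryonic kidney line, that were transiently transfected with a plasmid for PR100 with a triple FLAG tag and induced with 150 ng/ml doxycycline for 24 h. Cells were irradiated with UV light at 160 mJ/cm2, which joins protein to the RNA that it touches, and iiCLIP then takes the base just upstream of a cDNA as the crosslinked one. Complexes were purified by SDS-PAGE in replicates 1 to 3 and with beads in replicate 4, and the random barcode that marks single cDNAs had 7 nt, except in replicate 3, where it had 5 nt. The 4 libraries form a single group, no control library was analysed here, and the labels do not say whether the libraries came from separate cultures, so their spread may be technical in part. The libraries held between 125694 cDNAs in replicate 3 and 604816 in replicate 2. Replicate 4 is the single library purified with beads, so purification and library cannot be told apart in its values.

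Ribosomal RNA is made in the nucleolus by RNA polymerase I as a long 45S precursor. The precursor holds 18S rRNA of the small ribosomal subunit and 5.8S and 28S rRNA of the large subunit, and the external (ETS) and internal (ITS) transcribed spacers around them are cut away during processing. Its genes form tandem arrays on the short arms of the acrocentric chromosomes, and GRCh38 holds only a few of the many near-identical copies. 28S rRNA also carries long expansion segments rich in G and C that bacterial ribosomes lack.

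The RefSeq gene RNA45SN5 on the unplaced contig GL000220.1 served as the coordinate system of the rRNA unit. It spans bases 105424 to 118780 of the contig, 13357 nt in all. Alignment placed 8 copies of the unit on the members. The 5 full copies were RNA45SN1, RNA45SN2 and RNA45SN3 on chromosome 21, RNA45SN4 on KI270733.1, a scaffold assigned to chromosome 22, and RNA45SN5. The 3 partial ones were a second copy at the end of GL000220.1, a second copy at the end of KI270733.1 and a copy on chromosome 21. Identity to RNA45SN5 ran from 99.1% for the partial copy on chromosome 21 to 100% for the second copy of GL000220.1. A diverged copy, 81.3% identical over its longer block, lay on the minus strand of KI270442.1 and is described on its own.

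The positions with the most cDNAs are shown as 30 nt of GRCh38 on the strand of the RNA, from 5 nt before the crosslinked base, which is in capitals, so that their base content can be compared. Coordinates are those of the 30 nt, and each name gives the part of the unit and the base counted from the start of that part.
18S base 812, GL000220.1:153856-153885, plus strand: gaaaaAattagagtgttcaaagcaggcccg
18S base 529, KI270733.1:126454-126483, plus strand: taacaAtacaggactctttcgaggccctgt
18S base 327, KI270733.1:171333-171362, plus strand: cccccGtggcggcgacgacccattcgaacg
ITS1 base 325, KI270733.1:173198-173227, plus strand: gcggtTctcggcggcgtcgcggcgggtctg
28S base 2143, chr21:8216020-8216049, plus strand: ggtgtGcgtcggagggcggcggcggcggcg
28S base 2146, chr21:8443286-8443315, plus strand: gtgcgTcggagggcggcggcggcggcggcg
28S base 4851, KI270733.1:135056-135085, plus strand: cgcgcGccgggaccggggtccggtgcggag
outside the unit, GL000225.1:80279-80308, minus strand: cccctGccacaggactcgaggccctgggat
The windows in ITS1 and 28S held 80.0 to 90.0% G and C. Of the windows in 18S, that at base 812 held 43.3%, that at base 529 held 46.7% and that at base 327 held 73.3%.

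The members took between 0.532 and 1.54% of the cDNAs of a library. The share was 0.532% in replicate 1 (95% Wilson interval 0.508 to 0.557), 1.31% in replicate 2 (1.29 to 1.34), 1.54% in replicate 3 (1.47 to 1.61) and 1.26% in replicate 4 (1.21 to 1.31). The mean was 1.16% ± 0.437 (SD, n = 4), and 0.768% ± 0.491 with each position counted once. Replicate 1 lay below the other 3 libraries by more than the counting error, which is all that these intervals cover. The 8 rDNA copies held 11892 of the 13922 cDNAs, or 0.984% ± 0.397 of a library, and members outside every copy held 1511 cDNAs, or 0.129% ± 0.0361.

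Member cDNAs lay largely on sequence that the genome holds more than once. The next 30 nt after the crosslinked base occurred once in the genome, both strands counted, for 24.8% ± 5.57 (SD, n = 4) of the member cDNAs and for 92.3% ± 1.07 of the cDNAs of the rest. For the 8 rDNA copies the share was 16.1% ± 5.76, and with 80 nt it was 30.7% ± 16.02 against 99.5% ± 0.107 in the rest. RNA45SN1, RNA45SN5 and the second copy of GL000220.1 had no base with a unique run of 30 or 80 nt, yet the files place 1000, 1022 and 1528 cDNAs on them. The authors state that only uniquely mapping reads were kept, and the reads themselves were not analysed here, so how these cDNAs came to be placed on 1 copy was not tested. The copy on which a cDNA lies is therefore given as a placement, and parts of the unit are read from the sum over copies. This sum does not bring back any reads that the authors left out as not uniquely mapping. Their number was not measured here. It may differ between parts, since the parts differ in how many bases have a unique run. Shares and densities of the parts, and the member share of a library, thus describe the kept reads. They may be too low for rRNA and may not give the order of the RNAs.

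Crosslinks in the rRNA unit lay on the strand of the precursor. On the 8 copies, 11875 cDNAs were sense and 17 antisense. Antisense cDNAs numbered 3, 4, 10 and 0 in replicates 1 to 4, and the 0 of replicate 4 allows a share of up to 0.150%. In the parts placed by the alignment rule, the log2 ratio of sense to antisense was 9.49 ± 2.09 (SD, n = 4), and each of the 4 libraries gave a value above 0 (sign-flip permutation test, exact and two-sided, p = 0.13, adjusted p = 0.146 over 7 tests). With 4 libraries, 0.13 is the smallest p that this test can give, so no comparison in this design can pass 0.05.

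28S rRNA held most of the cDNAs of the unit. Of the sense cDNAs on the 8 copies, 65.3, 57.2, 72.0 and 63.4% lay in 28S in replicates 1 to 4, with a mean of 64.5% ± 6.13 (SD, n = 4). This is the largest share in every library, while 28S makes up 38.0% of the unit's length. 18S rRNA held 8.83, 25.1, 6.16 and 5.54%, or 11.4% ± 9.23. Replicate 2 stood apart in 18S, and the pooled share was 17.4% with it and 6.63% without it. 5.8S rRNA, the short RNA that pairs with 28S, held 2.11, 4.72, 0.817 and 0.749%, again with the highest value in replicate 2.

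Of the spacers, ITS1, which separates 18S from 5.8S, held the most cDNAs. Its share was 11.4, 8.94, 8.67 and 19.7% in replicates 1 to 4, or 12.2% ± 5.17, and was highest in replicate 4. The 5′ ETS, the longest spacer, held 6.01% ± 2.20 of the cDNAs on 27.4% of the length. ITS2 held 3.53% ± 1.94, and the 3′ ETS 0.316% ± 0.151, or 29 cDNAs in all. The mature RNAs together held 76.2, 86.96, 79.0 and 69.6% in replicates 1 to 4, and the spacers the remainder.

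Per length, the order of the parts differed from the order of the shares. On the scale of CPM per kb with the copies summed, 5.8S had 1295 ± 1441, 28S 1250 ± 539, ITS1 1109 ± 677 and 18S 620 ± 623 (SD, n = 4). These 4 parts did not differ beyond their spread, and the value of 5.8S rested on 3454 in replicate 2 against 532 to 659 in the other libraries. The means of ITS2 with 284 ± 217, the 5′ ETS with 155 ± 83.0 and the 3′ ETS with 79.7 ± 49.4 were lower. ITS2 and 18S did not differ beyond their spread, and in replicate 3 ITS2 had 593 and 18S 417. Within libraries, 28S exceeded 18S in replicates 1, 3 and 4 and lay below it in replicate 2.

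The ratio of 28S to 18S was tested on positions with a unique run of 30 nt, in counts per kb of such sequence. There 28S exceeded 18S by 3.16, 2.49, 3.98 and 4.88 on the log2 scale in replicates 1 to 4, or 3.62 ± 1.03 (exact sign-flip permutation test, p = 0.13, adjusted p = 0.146). This ratio rests on few bases, since 192 nt of 28S with 307 cDNAs and 226 nt of 18S with 36 cDNAs met the restriction. The 18S bases all lay in the partial copy on chromosome 21. Those of 28S lay on RNA45SN2 (30 nt), RNA45SN3 (142 nt) and RNA45SN4 (20 nt), so part and copy cannot be told apart in this ratio. Over all positions of that partial copy, 18S held 135 cDNAs on 1863 nt and 28S held 201 on 2863 nt. Over all positions the log2 ratio was 1.55, with 28S lower in replicate 2. The density of spacers against mature rRNA differed by 0.16 ± 0.60 on the log2 scale at unique positions (exact sign-flip permutation test, p = 0.75, adjusted p = 0.75). It was -1.76 over all positions, but also -1.08 and -0.70 with unique runs of 20 and 50 nt. Without the 10 highest member positions it was -1.34. Its direction thus depended on the setting. Of the 982 spacer cDNAs at unique runs of 30 nt, 451 and 231 lay at bases 325 and 326 of ITS1 on the second copy of KI270733.1.

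cDNAs concentrated in few places of the unit. Of 268 bins of 50 nt, 239 had an event, and the 10 bins with the most cDNAs held 53.0% of the 11875. The bin at 28S bases 2127 to 2176 held most, 1305 cDNAs, with 488, 1207, 1456 and 1275 CPM in replicates 1 to 4. It was the highest bin of replicates 1 to 3 and had rank 3 in replicate 4. Near the 3′ end of 28S, the bin at bases 4827 to 4876 had 189, 757, 581 and 1932 CPM, and the next one, bases 4877 to 4926, had 153, 645, 1026 and 874 CPM. The ITS1 bin at bases 278 to 327 had 210, 673, 469 and 1737 CPM. These 4 bins were among the 6 highest bins in each of the 4 libraries.

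18S bins were less alike among libraries. The bin at 18S bases 797 to 846 had 999 CPM in replicate 2 and 50.9 and 173 CPM in replicates 1 and 4, and no cDNA in replicate 3, where 3 cDNAs would be 23.9 CPM. At bases 497 to 546 replicate 2 had 789 CPM and the others 71.6 to 223, and at bases 297 to 346 replicates 2 and 3 had 579 and 342 CPM and the others 33.4 and 38.9. The first 50 nt of 5.8S had 483 CPM in replicate 2 and 44.5 to 65.9 in the others. The counts of the 268 bins correlated between libraries with Pearson's r from 0.69 to 0.85 and Spearman's rho from 0.54 to 0.75, over bins that share a library's depth and the base composition of the unit.

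At single bases the spread between libraries was wider. Base 812 of 18S, with 624 cDNAs over the copies, had 50.9, 954, 0 and 167 CPM in replicates 1 to 4, and 47 cDNAs were left without replicate 2. Base 325 of ITS1, with 453, had 129, 425, 127 and 763 CPM. Base 4851 of 28S, also with 453, had 98.8, 351, 23.9 and 1141 CPM. Replicate 2 was thus highest at the 18S base, and replicate 4 at the ITS1 base and the 28S base. Bases 529 and 327 of 18S had 366 and 356 cDNAs, of which 306 and 303 came from replicate 2. Around base 2145 of 28S the events were spread over adjacent bases, with 167 cDNAs at base 2143, 174 at 2145 and 148 at 2146. Of the 2091 bases of the unit with an event, 95 had one in all 4 libraries, and these 95 held 43.4% of the cDNAs.

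The placement of cDNAs on copies did not follow the parts evenly. RNA45SN3 had 1883 of its cDNAs in 28S and 0 in 18S, ITS1 and 5.8S, and RNA45SN1 had 920 in 28S and 0 in 18S. The second copy of GL000220.1 held 1044 cDNAs in 18S and 404 in 28S. RNA45SN5, whose sequence is the same wherever both copies reach, held 46 and 787. The second copy has 4483 of the 5070 nt of 28S, so the 28S counts do not cover the same sequence. The second copy of KI270733.1 held 954 of the 1306 cDNAs of ITS1. Among 132 sets of bases with the same 80 nt in more than 1 copy and at least 10 cDNAs, 86.1% of 5215 cDNAs lay on the most loaded copy, and 44 sets had all their cDNAs on 1 copy. At 18S base 812, where the 8 copies share the next 30 nt, 569 of the 624 cDNAs lay on the second copy of GL000220.1 and 55 on the partial copy on chromosome 21.

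In ITS1 a run of G after the main site differed in length between copies. The stretch from 12 nt before the run is shown for a copy of each length, with the run in capitals, because nearly all cDNAs at this site lay on 1 run length.
7 G, RNA45SN5, GL000220.1:111283-111312, plus strand: cgcggcgggtctGGGGGGGtctcggtgccc
6 G, second copy of KI270733.1, KI270733.1:173215-173244, plus strand: cgcggcgggtctGGGGGGtctcggtgccct
5 G, RNA45SN2, chr21:8211833-8211862, plus strand: cgcggcgggtctGGGGGtctcggtgccctc
The run began 24 nt after base 325 of ITS1. The single copy with 6 G held 451 of the 453 cDNAs at that base, the 5 copies with 7 G held 2, and the 2 copies with 5 G held 0. At base 326 the counts were 231, 2 and 0. These cDNAs came from all 4 libraries. On the 6 G copy, the next 30 nt after bases 325 and 326 occur once in the genome, while several copies share the run of 7 G or of 5 G. Since the authors kept only uniquely mapping reads, run length and mappability cannot be told apart here. The split is therefore a placement and not a measure of crosslinking by run length.

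Near the 3′ end of 28S the copies differed by single bases. The 30 nt from 28S base 4881 are shown with letters that differ from RNA45SN5 in capitals, counted from 1 at that base.
RNA45SN3, chr21:8401791-8401820, plus strand: ttcgtcctgggaaacggggcgcggccggag
RNA45SN4, KI270733.1:135091-135120, plus strand: ttcgtcctgggaaacggggcgcggccggaA
RNA45SN1, chr21:8446022-8446051, plus strand: ttcgtcctgggaaacggggcgcggcTggaA
RNA45SN4 differed by G30A and RNA45SN1 by C26T and G30A. At base 4881 the cDNAs numbered 69 on RNA45SN3, 59 on RNA45SN4 and 0 on RNA45SN1, and 0 on RNA45SN5, which has the same 30 nt as RNA45SN3. At base 4851, where these 30 nt lie downstream, RNA45SN4 held 309, RNA45SN3 139, RNA45SN2 3 and RNA45SN5 2 of the 453 cDNAs.

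Members lay in significant clusters more often than other positions. Over all positions, 5.01% lay inside a cluster of the pooled list, against 1384 of the 3681 member positions, or 37.6%. In the lists of single libraries, 1.6, 3.68, 4.14 and 3.09% of all positions lay in clusters of replicates 1 to 4, and 32.6, 36.5, 41.4 and 37.9% of the member positions. In cDNAs, the members' own-cluster share was 60.8% ± 9.84 and that of the rest 8.22% ± 3.40. The difference was 52.6 ± 6.92 percentage points (SD, n = 4), above 0 in all 4 libraries (exact sign-flip permutation test, p = 0.13, adjusted p = 0.146). It was 57.6 points for the rDNA copies and 15.8 points for the members outside them.

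The 131 pooled member clusters had a median of 20 cDNAs and a median width of 12 nt. All were sense where they lay in a copy of the unit. The 8 copies held 109 of them, with 79 in 28S, 12 in 18S, 8 in ITS1, 5 in the 5′ ETS, 3 in 5.8S, 2 in ITS2 and 0 in the 3′ ETS. The largest, KI270733.1:134986-135122 in 28S, held 1059 cDNAs, with 77, 369, 148 and 465 in replicates 1 to 4. The ITS1 cluster KI270733.1:173147-173225 held 919, and the 28S cluster chr21:8443239-8443340 held 905. Clusters at 28S bases near 4851 and 2145 also led on other copies, with 584 cDNAs at chr21:8401761-8401796, 285 at chr21:8216000-8216040 and 243 at GL000220.1:115465-115502. The 18S cluster GL000220.1:153859-153861, 3 nt wide, held 581 cDNAs, of which 539 came from replicate 2 and 0 from replicate 3. The 5.8S cluster KI270733.1:128870-128901 held 207, of which 183 came from replicate 2.

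Some clusters recurred in every library. Of the 131, 15 overlapped a cluster of each of the 4 libraries by at least 1 nt on the same strand, and 31 overlapped none. The same counts over all 5596 pooled clusters are not given here, so these cannot be read as particular to the members. The 15 comprised 9 clusters of 28S, 3 of the 5′ ETS, 2 of ITS2 and 1 of ITS1, and 0 of 18S or 5.8S. The 5′ ETS clusters lay at bases 774, 1622 and 2592 of the spacer, and held 119, 165 and 63 cDNAs. Spacer clusters in both ETS and ITS sequence were thus called in all 4 libraries, although the 5′ ETS had few cDNAs for its length.

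GANGA pentamers, here GAAGA, the main pentamer of the study, and its forms with G or C as the middle base, stood near fewer member cDNAs than near cDNAs of the rest. Within 5 nt upstream to 30 nt downstream of the crosslinked base, on its strand, a GANGA pentamer stood near 5.01, 10.8, 6.14 and 5.01% of the member cDNAs in replicates 1 to 4. In the rest the shares were 13.4, 14.8, 12.5 and 16.4%. The difference was -7.51 ± 3.15 percentage points (SD, n = 4), below 0 in all 4 libraries (exact sign-flip permutation test, p = 0.13, adjusted p = 0.146). GAAGA alone stood near 2.46% ± 0.910 of the member cDNAs and 8.41% ± 1.38 of the rest.

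Within the unit, the share near GANGA differed between parts. RNA45SN5 holds 17 GANGA pentamers in 28S, 12 in the 5′ ETS, 8 in 18S, 3 in ITS2, 1 each in ITS1 and 5.8S, and 0 in the 3′ ETS. Each cDNA was given the window of the base of RNA45SN5 on which it projects. For 28S, 5.55% of the pooled cDNAs and 10.2% of its bases had one in the window, and each of the 4 libraries, at 3.57 to 6.84%, lay below the bases. In 18S these values were 21.3 and 11.8%, in 5.8S 45.3 and 20.4%, and in ITS1 2.83 and 2.97%. The pooled 18S share rested largely on base 327, which has a motif in its window and held 356 of the 2071 cDNAs of 18S. Of these 356, 303 came from replicate 2 and 42 from replicate 3. Over the whole unit, 8.55% of the bases had one, and 5.66, 11.8, 6.09 and 5.19% of the cDNAs in replicates 1 to 4. The pooled share of 9.23% thus lay above that of the bases through replicate 2, and was 5.61% without it. The 18S share differed widely between libraries, with 12.8, 21.4, 49.0 and 4.50% in replicates 1 to 4, while 5.8S had 53.6, 45.1, 38.5 and 40.0% on 13 to 328 cDNAs. In ITS1 the libraries had 0.662, 0.643, 0 and 8.10%, so the pooled share came mostly from replicate 4. The single pentamer of 5.8S is shown in capitals in the 30 nt around it, because the share of 5.8S cDNAs near a motif lay above that of its bases in each of the 4 libraries.
5.8S bases 27 to 56, GL000220.1:112050-112079, plus strand: tcgtgcgtcgatGAAGAacgcagctagctg

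Member cDNAs lay in sequence richer in G and C than the rest. The mean GC content of the same window was 63.1, 66.1, 71.3 and 72.1% for members and 42.2, 45.03, 48.9 and 48.0% for the rest in replicates 1 to 4. The difference was 22.1 ± 1.49 percentage points, above 0 in all 4 libraries (exact sign-flip permutation test, p = 0.13, adjusted p = 0.146). The rDNA copies differed from the rest by 26.6 points and the members outside them by 0.57 points (exact sign-flip permutation test for the latter, p = 0.88). The unit itself has a GC content of 72.5% over the windows of all its bases, and its cDNAs had 71.3, 68.4, 77.2 and 75.1% in replicates 1 to 4. The libraries thus lay on both sides of the unit, and the pooled 71.0% became 74.7% without replicate 2. Within 28S the cDNAs had 71.2, 73.2, 77.2 and 74.8%, each above the 69.5% of all bases. Within 18S they had 53.8, 53.7, 63.5 and 49.7% against 56.4%, with replicate 3 alone above it.

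cDNAs stacked on single positions more in members. An occupied member position held 1.81, 3.78, 2.22 and 2.58 cDNAs on average in replicates 1 to 4, and an occupied position of the rest 1.47, 1.66, 2.16 and 1.14. The log2 ratio was 0.68 ± 0.59, above 0 in all 4 libraries (exact sign-flip permutation test, p = 0.13, adjusted p = 0.146). It was 0.04 to 1.19 over the libraries, and 0.05 once positions inside clusters were left out. Without the 10 highest member positions it was 0.41 ± 0.42 (exact sign-flip permutation test, p = 0.25), and the libraries no longer all lay above 0. The 10 member positions with the most cDNAs held 20.96% of the member cDNAs, and 61.2% of the member positions had a single cDNA.

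The diverged copy on KI270442.1 held 519 cDNAs, all on the strand of its rRNA. Of these, 455 lay in its 18S part, 50 in its 5.8S part, 11 in ITS1 and 3 in the 5′ ETS, and 0 in ITS2. All of these cDNAs had a unique run of 80 nt, but 307 of them had one of 30 nt, so cDNAs from shorter reads share the limit of the other copies. It had 7 pooled clusters with 464 cDNAs. The largest, KI270442.1:219156-219168, held 190, with 14, 118, 54 and 4 in replicates 1 to 4, at the base that aligns with 18S base 1157. The contig as a whole had 129, 518, 883 and 434 CPM, or 491 ± 310 (SD, n = 4).

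Outside rDNA, GL000225.1, a scaffold assigned to chromosome 14, held 324 cDNAs on 13 positions. Of these, 307 lay in a cluster of 5 nt, GL000225.1:80300-80304 on the minus strand, with 31, 233, 0 and 43 in replicates 1 to 4. The best match of its surroundings among the GENCODE 44 transcripts was DBET, a long non-coding RNA, with 78.1% identity over 160 aligned nt. Its sequence shared 2 runs of 9 nt with the window of 18S base 529, a pair compared after its values were seen, and the runs are shown in capitals.
18S base 529, KI270733.1:126454-126483, plus strand: taacaatACAGGACTCtttcGAGGCCCTGt
GL000225.1:80279-80308, minus strand: cccctgccACAGGACTCGAGGCCCTGggat
In 18S the runs lie 4 nt apart and on GL000225.1 they adjoin. The 18S base had 26, 306, 2 and 32 cDNAs over the copies, and position 80303 of GL000225.1 had 30, 199, 0 and 39. Whether these cDNAs have the same origin was not tested.

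The AT-rich contigs KI270467.1 and KI270466.1 showed another pattern over the libraries. KI270467.1, 3920 nt long with 24.3% GC, held 213 cDNAs, all on the minus strand, with 356, 28.1, 509 and 72.4 CPM in replicates 1 to 4. KI270466.1, 1233 nt long with 22.5% GC, held 55, with 80.8, 6.61, 143 and 33.4 CPM. Both were thus highest in replicate 3 and lowest in replicate 2. Both contigs repeat with a period of 42 nt, at which 64.1 and 74.0% of the bases matched, against a median of 32.8 and 33.2% over all periods tried. The window of the most used position of KI270467.1, whose 8 cDNAs all came from replicate 3, is given for its base content, with the crosslinked base in capitals.
KI270467.1:3849-3878, minus strand: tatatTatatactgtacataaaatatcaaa
No position of this contig held more than 8 cDNAs, and it had 7 pooled clusters with 107 cDNAs. The scaffold GL000194.1, assigned to chromosome 14, held 134 cDNAs on 81 positions, with 77.8, 71.1, 326 and 134 CPM, and its highest position held 8. Sequence outside the 45S copies on GL000220.1, KI270733.1 and the chromosome 21 stretch held 212 cDNAs. It includes sequence before the first copy as well as between copies.

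Of the 28 genes that GENCODE 44 places in the chromosome 21 stretch, 3 had at least 50 pooled cDNAs on their strand. The long non-coding RNA gene ENSG00000280441, chr21:8380643-8454792 on the plus strand, spans RNA45SN3 and RNA45SN1 and held 350, 1836, 354 and 403 cDNAs in replicates 1 to 4, or 2943 in all, of which 98.6% lay in these rRNA units. ENSG00000278996, chr21:8197620-8227646, spans RNA45SN2 and held 133, 554, 205 and 146, or 1038 in all, of which 99.0% lay in it. Their cDNAs and those of the rRNA units cannot be told apart. The 5.8S gene ENSG00000277739, chr21:8256781-8256933, held 76, of which 72 came from replicate 2. No cDNA lay on the strand of 19 of the 28 genes.

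Other rRNA genes and RNAs tied to rRNA processing are given as background. The 2 mitochondrial rRNA genes had 17006, 55971, 11958 and 60110 CPM in replicates 1 to 4, against 3966, 11499, 12666 and 11150 CPM for the sense strand of the 8 rDNA copies. Mitochondrial rRNA lay above the rDNA copies in replicates 1, 2 and 4 and below them in replicate 3. The rDNA counts lack any reads that the authors left out as not uniquely mapping. This order is therefore one of the deposited counts and may not be that of the RNAs. The 43 other genes of type rRNA, 6 of them with a cDNA, held 105 cDNAs. The 497 rRNA pseudogenes of GENCODE on the chromosomes held 1365, or 1247 ± 608 CPM (SD, n = 4). The 23 RefSeq pseudogenes of 18S, 5.8S and 28S on the chromosomes held more, 2534 on both strands, or 2024 ± 859 CPM. These sets of pseudogenes may overlap. SNORD3A (U3), a small nucleolar RNA needed for early cuts of the precursor, had 364 ± 422 CPM, and SNORD118 (U8), needed for 5.8S and 28S, had 347 ± 246 CPM. RMRP, the RNA of the enzyme that cuts in ITS1, had 64 cDNAs, and its relative RPPH1, the RNA of RNase P, had 25. Replicate 3 had 0 cDNAs on both, where 3 would be 23.9 CPM.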

How the data were processed

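The authors used the random barcodes to collapse PCR duplicates, mapped reads to GRCh38 with Gencode 27 and STAR (version not given in the sources used here), kept uniquely mapping reads with up to 2 mismatches, and called clusters with iCount at a false discovery rate of 0.05. The deposited values are cDNA counts at each position and strand, not normalised; the pooled list was the sum of the 4 libraries at all 784115 positions. Libraries held 334057, 604816, 125694 and 179636 cDNAs.

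RNA45SN5 and its 18S, 5.8S and 28S genes (RefSeq, GRCh38.p14) were placed on the members with blastn 2.17.0. A part was placed at 95% identity over 80% of its length, and a 45S copy needed 1000 aligned nt. Each base of a copy was projected onto RNA45SN5. Sequence after each position was counted over GRCh38 without alternate scaffolds. In the tests, 0.5 was added to counts in ratios, partial copies gave only placed parts and the ITS between them, and p-values came from two-sided, exact sign-flip permutation tests over the 4 libraries with Benjamini-Hochberg adjustment over 7 tests. Named were every part and copy, the 5 contigs, 10 clusters and 10 positions with the most cDNAs, genes with 50 or more cDNAs in the chromosome 21 stretch, and fixed RNAs as background. KI270466.1, GL000194.1 and the clusters shared by the libraries were named after their values were seen. The members and lists were chosen with earlier results of these data known. Settings were varied in 68 planned and 13 added alternatives, the latter chosen after seeing the data. On simulated libraries, with 200 sets for each ratio, the log2 density ratio was recovered within 0.004. This value does not give the error of the tested ratio of 28S to 18S, which rests on 36 cDNAs of 18S. When counted in another way, 24 of 24 sequence counts and 14 of 14 part counts were the same. Part counts were not recounted for every copy. Python 3.11.15, numpy 2.4.6, pandas 2.3.3, pysam 0.24.0 and matplotlib 3.10.9 were used.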

Additional observations from a re-analysis of the deposited data

Results flagged for a closer look

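In 5 of 61 values given per library, 1 library lay far from the other 3 by Dixon's criterion, which chance meets in about 1 of 20 groups; 4 of the 5 were in replicate 2 and 1 in replicate 4. Replicate 2 was highest for the share of 18S in the unit, at 25.1% against 5.54 to 8.83%. It was highest for the share of RNA45SN3 in the member cDNAs, at 15.8% against 10.5 to 11.3%. At the first 50 nt of 5.8S it had 483 CPM against 44.5 to 65.9, and at position 153861 of GL000220.1, in 18S, 871 CPM against 0 to 145. Replicate 4, purified with beads, had 1080 CPM at position 135061 of KI270733.1, in 28S, against 15.9 to 152.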

How the results depend on the processing

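Of 74 alternatives to the 7 results whose direction can turn, 66 kept it and 8 reversed it, all of these for the density of spacers against mature rRNA, which was 0.16 on the log2 scale. It was -0.76 with each position counted once, -1.34 without the 10 highest positions, -1.08 and -0.70 with unique runs of 20 and 50 nt, -1.76 over all positions, -1.76 with partial copies added and -1.09 with partial copies at unique runs of 80 nt. Leaving out 1 library gave -0.010 to 0.45, with the lowest value without replicate 1, and the cause was not tested. No p could pass 0.05 in any setting. The log2 ratio of 28S to 18S stayed above 0 but ran from 1.47 over all positions with partial copies to 4.40 with unique runs of 50 nt. The log2 ratio of cDNAs per position ran from 0.05 without cluster positions to 0.89 without replicate 3. The member share, which cannot turn, was 0.768% with each position counted once against 1.16%. Only 36 cDNAs of 18S lay at unique positions. The tests compared values within each library, and no comparison between groups of libraries was possible because all 4 belong to 1 group. Depth limits single bases most, since 3 cDNAs are 4.96 to 23.9 CPM.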

Other observations

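Among the 8 sequences outside the chromosomes with the most cDNAs, KI270467.1 had the most pooled cDNAs per kb of contig, 54.3, followed by KI270466.1 with 44.6, KI270733.1 with 27.5 and GL000220.1 with 16.1. The order differed between libraries: in CPM per kb, KI270467.1 had 90.9, 7.17, 130 and 18.5 in replicates 1 to 4, and KI270733.1 had 8.81, 23.01, 30.005 and 38.1, so that KI270467.1 lay above it in replicates 1 and 3 and below it in replicates 2 and 4. Of 169 sequences outside the chromosomes in the genome, 69 had an event.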
